A study of Homo sapiens with 72 samples.

Results

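The comparison is the abundance of mature miRNAs in wildtype and TUT4/TUT7-edited IGROV1, an ovarian cancer cell line that expresses LIN28A. Of the 72 samples of the series, 36 are small RNA libraries, and the 12 from IGROV1 were used here: 4 wildtype libraries from parental cells that were not targeted, 4 of mutant_1 and 4 of mutant_2. All 3 groups are labelled LIN28A+, and both mutants are labelled TUT4-; TUT7-, edited with CRISPR at exon 12 of TUT4 and exon 14 of TUT7. The count table lists 2588 mature miRNAs, each taken from its precursor row with the highest total; 1790 had a read in the 12 libraries and 678 passed the filter on low counts and were tested. The wildtype cells were at passages 6 to 9, mutant_1 at passages 2 to 5 and mutant_2 at passages 3 to 6, so passage, which overlaps in 1 mutant_2 library only, and genotype cannot be told apart. In each group replicates 1 to 4 are successive passages in that order, so replicate number and passage step cannot be told apart either. Within each mutant the labels give every library a clone name that differs in its last number only, so whether the 4 are cultures of 1 clone or subclones is not given. Nothing says that the 4 were separate cultures, so the p-values measure the spread between these libraries, and editing and the derivation of a line from few cells cannot be told apart.

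A miRNA is cut from a hairpin, loaded into an Argonaute protein, and guides it to messenger RNAs mainly by its seed, bases 2 to 8 counted from its 5′ end. miRNAs with the same seed form a family and can share targets, whereas neighbouring hairpins form a genomic cluster and are often cut from 1 primary transcript. TUT4 and TUT7 add uridines to the 3′ ends of RNAs, among them precursors of let-7 when LIN28 is bound and the ends of mature miRNAs.

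The sequences below are those of the main groups described here, with relatives of the same seed that moved less or were not called, from RefSeq on GRCh38.p14, with the seed in capitals. Of the 678 tested miRNAs, 591 were matched to this table. The first set shares the seed of the miR-302 family, which fell in both mutants.

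hsa-miR-302a-3p: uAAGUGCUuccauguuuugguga
hsa-miR-302b-3p: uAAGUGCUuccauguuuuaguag
hsa-miR-302c-3p: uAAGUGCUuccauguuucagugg
hsa-miR-302d-3p: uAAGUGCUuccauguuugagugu

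The next set shows the miR-200 family, in which the first 3 share a seed and the last 2 share another that differs within it.

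hsa-miR-200c-3p: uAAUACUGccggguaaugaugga
hsa-miR-200b-3p: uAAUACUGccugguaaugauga
hsa-miR-429: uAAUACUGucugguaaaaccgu
hsa-miR-141-3p: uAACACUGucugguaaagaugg
hsa-miR-200a-3p: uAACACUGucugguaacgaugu

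The next 3 are the leading miRNAs of a cluster that fell and, last, of the cluster with the largest rise.

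hsa-miR-143-3p: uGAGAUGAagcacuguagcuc
hsa-miR-145-5p: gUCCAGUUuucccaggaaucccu
hsa-miR-99a-5p: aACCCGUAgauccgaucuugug

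The let-7 family members below have 1 seed and moved in different directions.

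hsa-let-7a-5p: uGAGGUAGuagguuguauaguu
hsa-let-7c-5p: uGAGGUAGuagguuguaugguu
hsa-let-7g-5p: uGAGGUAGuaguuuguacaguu
hsa-let-7i-5p: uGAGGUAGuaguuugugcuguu
hsa-miR-98-5p: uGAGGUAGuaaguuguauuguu

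The last set holds paralogous pairs from the miR-23b and miR-23a clusters, and both arms of the miR-324 hairpin.

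hsa-miR-23b-3p: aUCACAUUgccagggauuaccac
hsa-miR-23a-3p: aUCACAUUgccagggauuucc
hsa-miR-27b-3p: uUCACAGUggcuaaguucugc
hsa-miR-27a-3p: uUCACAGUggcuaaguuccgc
hsa-miR-324-5p: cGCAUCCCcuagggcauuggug
hsa-miR-324-3p: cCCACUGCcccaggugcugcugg

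The targeted genes were read in matched poly(A) libraries, where they are listed as ZCCHC11 and ZCCHC6. TUT4 was at 69.7, 82.5, 80.5 and 76.9 CPM in wildtype, 31.9, 33.5, 31.2 and 11.9 in mutant_1, and 30.2, 30.2, 27.1 and 17.5 in mutant_2. TUT7 was at 27.8, 37.5, 37.2 and 31.7 CPM in wildtype, 19.8, 22.8, 21.0 and 9.76 in mutant_1, and 14.0, 14.1, 11.9 and 8.83 in mutant_2. Both transcripts were lower in all 8 mutant libraries than in any wildtype library, although a count over a whole gene does not read the edited exon. The epithelial marker EPCAM was at 70.8 to 85.1 CPM in wildtype and at most 0.457 in the mutants, and KRT8 was at 167.9 to 227.9 against at most 5.56. KRT18, its usual partner, was at 194.6 to 251 CPM in wildtype, 194.8 to 392.1 in mutant_1 and 26.7 to 44.03 in mutant_2, so the epithelial genes did not move together in mutant_1. CDH1 was low throughout, at 3.62 to 5.46 CPM in wildtype and at most 2.85 and 0.376 in the mutants. PAX8, a marker of Müllerian origin, stayed between 427.5 and 853.7 CPM in all 12 libraries, while WT1 and MUC16 were below 3 CPM. These markers were chosen after the data were seen, and their part in the miRNA results was not tested. That the mutants and the wildtype cells are otherwise the same line was not tested either, so in every comparison with wildtype that follows, editing and any other difference between the lines cannot be told apart. The small RNA libraries held 5703589 to 13279843 miRNA reads, with replicates 3 and 4 the shallower in every group, and correlations within a group were 0.9936 or higher.

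Differences from wildtype were widespread (edgeR quasi-likelihood test, Benjamini-Hochberg adjusted p under 0.01). Of the 678 miRNAs, 351 (51.8%) were called in mutant_1, 195 higher (28.8%) and 156 lower (23%). In mutant_2 there were 368 (54.3%), 197 higher (29.1%) and 171 lower (25.2%), and in the mean of the mutants 394 (58.1%). In both mutants with the same sign, 132 (19.5%) rose and 109 (16.1%) fell, together 35.5% of those tested. These shares are the background for each count of members that follows. Which direction had more calls was not stable: 96 rose and 124 fell without wildtype replicate 2, 101 and 128 without mutant_2 replicate 1, 121 and 124 with DESeq2 size factors, and 112 and 119 with library totals as the only scaling. Leaving out wildtype replicate 2 moved the log2 changes by a median of -0.121 in mutant_1 and -0.173 in mutant_2. Without mutant_2 replicate 1 the medians were -0.105 and -0.152. A call lost without either library thus need not rest on the value of that miRNA in that library. The 2 comparisons share the 4 wildtype libraries. A further 18 miRNAs were called in both with opposite signs, and a direct test between the mutants called 234 (34.5%), among them 88 of those that rose or fell in both. Of 48 genomic clusters (at least 2 hairpins of tested miRNAs within 10 kb on 1 strand), 17 had at least 2 tested mature members, and no fewer than 50% of them, moving the same way in both mutants. So did 19 of 67 seed families. Some of these groups count the same reads more than once. miR-365a-3p and miR-365b-3p share 1 sequence, the clusters of miR-181a and miR-181b hold the same 5p members, and miR-24-3p is in both miR-23 clusters. The plot of cluster members shows their spread.

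**Figure D1:**
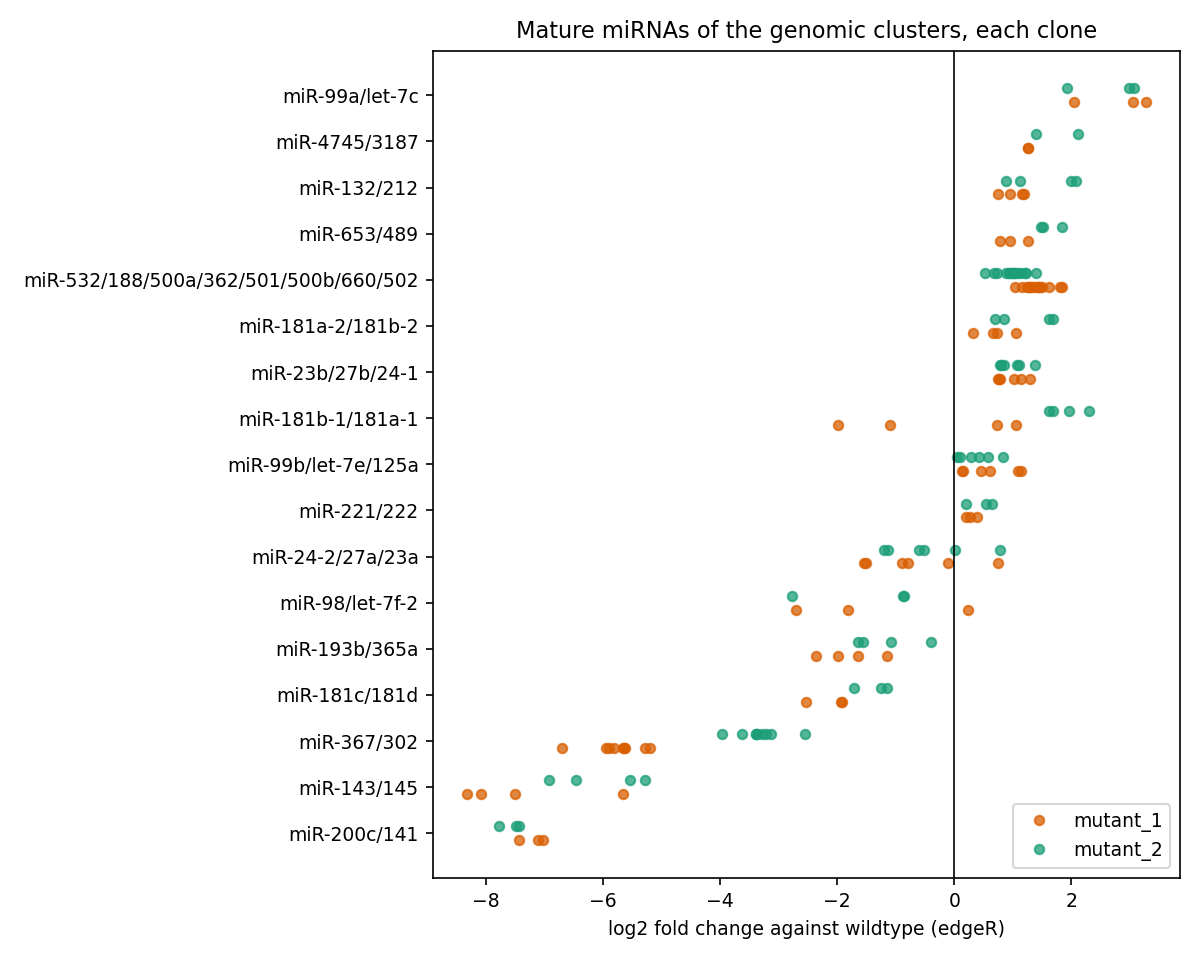
Log2 fold change against wildtype (x axis) for every tested mature miRNA of the 17 genomic clusters (y axis), with a point for mutant_1 and a point for mutant_2. The clusters of miR-200c, miR-143 and miR-302b lie furthest to the left, and miR-99a/let-7c furthest to the right.

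The cluster of miR-302 and miR-367, known for its high level in pluripotent stem cells, fell as a whole. It lies at chr4:112647874-112648557 on the minus strand of hg38, in exons of the lncRNA MIR302CHG and within an intron of LARP7 on the opposite strand. Its 9 tested mature miRNAs fell in both mutants, with a median log2 fold change of -5.67 in mutant_1 and -3.36 in mutant_2. Summed over the 9, the cluster was at 27110, 32240, 38293 and 39224 CPM in the wildtype libraries, 525, 687, 617 and 660 in mutant_1, and 3054, 2775, 3510 and 3881 in mutant_2. The 3 groups did not overlap, and mutant_2 kept more of the cluster than mutant_1.

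Its most abundant member, miR-302b-3p, was at 13671, 15826, 19956 and 19806 CPM in wildtype, 281, 380, 349 and 375 in mutant_1, and 1519, 1447, 1804 and 1964 in mutant_2. The change was -5.64 ± 0.16 (log2, SE; edgeR adjusted p = 4.2e-16) in mutant_1 and -3.36 ± 0.14 (adjusted p = 3e-13) in mutant_2, n = 4 per group in the fit across all miRNAs. The steepest fall in the cluster was that of miR-302d-3p, at -6.70 ± 0.16 and -3.96 ± 0.14. miR-367-3p, which has another seed, fell by 5.91 and 3.62 on the log2 scale, much like its neighbours. The mutants differed for miR-302b-3p by 2.28 ± 0.14 (adjusted p = 5.65e-11 in the direct test). A miR-302e row from chromosome 11 fell too, but its reads may be those of the near-identical miR-302 family, so it is uncertain.

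The cluster of miR-200c and miR-141 was nearly lost. miR-200 family members are known to hold back ZEB1 and ZEB2, and are high in epithelial cells. The cluster lies at chr12:6963699-6964191 on the plus strand, in introns of the lncRNA MIR200CHG. miR-200c-3p was at 5226, 5166, 5803 and 5125 CPM in wildtype, 43.3, 39.95, 42.5 and 37.0 in mutant_1, and 29.9, 32.7, 27.5 and 28.8 in mutant_2. Every mutant library lay far below every wildtype library. The change was -7.03 ± 0.11 in mutant_1 (adjusted p = 5.26e-20, edgeR) and -7.48 ± 0.11 in mutant_2 (adjusted p = 2.47e-20). miR-141-3p was at 148 to 253 CPM in wildtype and between 0.469 and 2.01 in the 8 mutant libraries. The minor arm miR-200c-5p had 99 reads in the wildtype libraries and 0 in either mutant, which makes it at least 23.97-fold lower in mutant_1 and at least 29.4-fold lower in mutant_2, against a floor of 3 reads over the group. miR-141-5p, with 264 wildtype reads, had 1 in mutant_1 and 0 in mutant_2, where it was at least 81.1-fold lower.

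The second miR-200 locus was less changed than the first, weakly lower in mutant_1 and clearly lower in mutant_2. miR-200b, miR-200a and miR-429 lie at chr1:1167104-1169087 on the plus strand, outside any annotated gene in GENCODE v44. miR-200b-3p was at 2776, 2259, 2167 and 2029 CPM in wildtype, 1763, 1703, 1635 and 1674 in mutant_1, and 403, 352, 367.2 and 383 in mutant_2. The 3 groups were separate, with mutant_1 close below wildtype and mutant_2 far below. The change was -0.45 ± 0.09 in mutant_1 and -2.62 ± 0.10 in mutant_2, and the mutants differed by -2.17 ± 0.10 (adjusted p = 1.22e-12). Over the 5 tested members the median was -0.30 in mutant_1 and -2.62 in mutant_2, and 2 of them, miR-200b-3p and miR-429, fell in both. The call of miR-429 in mutant_1 (-0.44 ± 0.12, adjusted p = 0.00433) was lost without wildtype replicate 1 (-0.28, adjusted p = 0.0285), without mutant_1 replicates 1, 2 or 3, and when all 36 libraries were fitted. The call of miR-200b-3p in mutant_1 was also lost in the fit of 36. Of the epithelial genes given above, EPCAM and KRT8 were at or near 0 in both mutants, CDH1 was lower in both, and KRT18 was at or above its wildtype range in mutant_1 and below it in mutant_2.

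**Figure D2:**
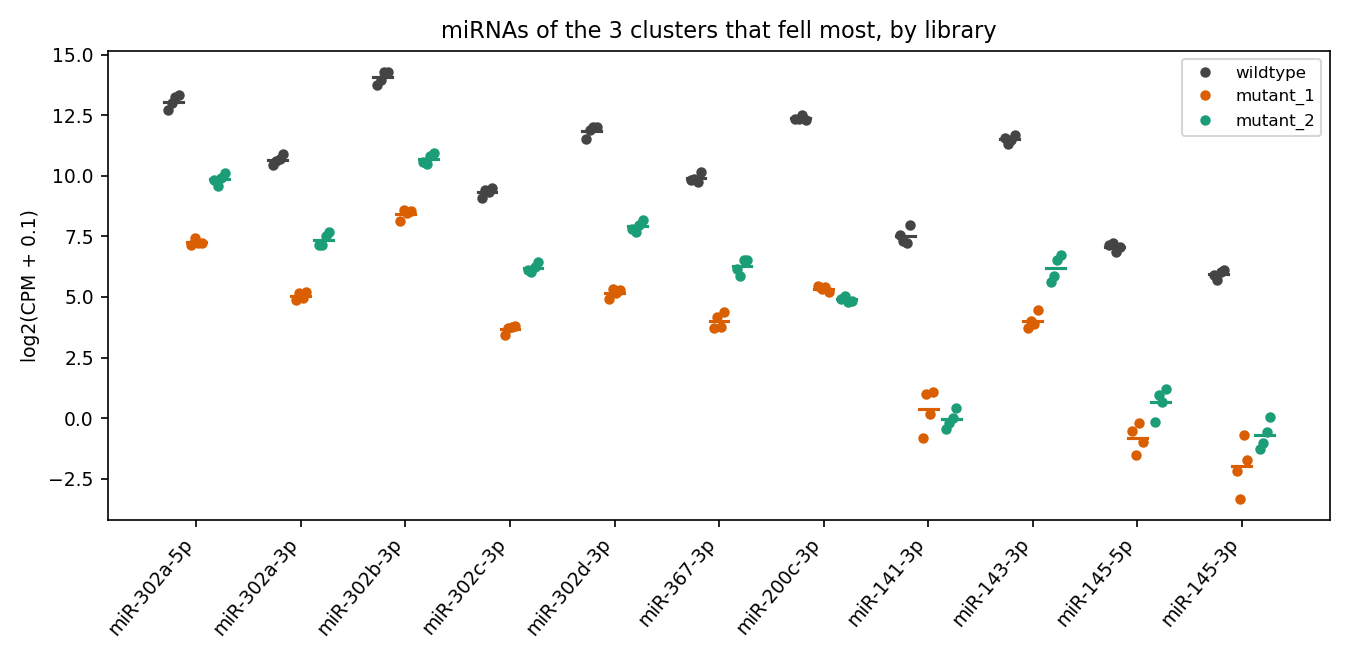
Level of 11 miRNAs of the miR-302, miR-200c and miR-143 clusters as log2(CPM + 0.1) (y axis), with 1 point per library and a bar at the group mean. Wildtype lies above both mutants for each miRNA, and mutant_2 lies above mutant_1 for the miR-302 and miR-367 members.

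The cluster of miR-143 and miR-145, typical of smooth muscle and other mesenchymal cells, fell as steeply. It lies at chr5:149428918-149430733 on the plus strand in the lncRNA CARMN. Its 4 tested miRNAs fell in both mutants, with medians of -7.80 and -6.01. miR-143-3p was at 3038, 2533, 2835 and 3317 CPM in wildtype, 13.03, 16.05, 14.7 and 21.7 in mutant_1, and 48.5, 57.4, 91.1 and 107 in mutant_2. The groups did not overlap, and mutant_2 was above mutant_1 by 2.23 ± 0.22 on the log2 scale (adjusted p = 7.91e-08). miR-145-5p went from 115 to 148 CPM in wildtype to 0.248 to 0.766 in mutant_1 and 0.788 to 2.17 in mutant_2.

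Among single miRNAs outside these clusters, miR-135b-5p and miR-146a-5p were in the 10 largest falls. miR-135b-5p, from an intron shared by LEMD1 and BLACAT1 on chromosome 1, was at 2609, 1599, 1443 and 2078 CPM in wildtype, 7.98, 10.8, 10.7 and 13.7 in mutant_1, and 173.7, 182.8, 170.0 and 133.5 in mutant_2. The mutants differed by 3.96 ± 0.20 (adjusted p = 5.04e-12), the widest gap between them among the 10 largest falls. miR-146a-5p, a miRNA induced by NF-kB, was at 152.8 to 451.5 CPM in wildtype and 3.15 to 9.24 in the mutants.

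Smaller clusters fell in part. For miR-193b and miR-365a on chromosome 16, 2 of 4 members fell, and miR-365a-3p changed by -2.36 ± 0.11 and -1.65 ± 0.10; its mature sequence is shared with miR-365b-3p, so the locus is uncertain. For miR-181c and miR-181d on chromosome 19, 3 of 3 fell, with medians of -1.93 and -1.25. The shared 5p arms of the other miR-181 copies rose: miR-181a-5p was at 453 to 518 CPM in wildtype, 692 to 879 in mutant_1 and 1384 to 1609 in mutant_2, and miR-181b-5p rose by 1.05 ± 0.09 and 1.68 ± 0.09. Both lie at a locus on chromosome 1 and another on chromosome 9, between which mature reads cannot be assigned. Of the 3p arms, which tell the copies apart, miR-181a-2-3p from chromosome 9 rose (0.67 ± 0.10 and 0.84 ± 0.10). miR-181a-3p from chromosome 1 was at 6.44, 4.90, 8.33 and 12.6 CPM in wildtype, 2.82, 3.97, 4.34 and 3.42 in mutant_1, and 39.4, 45.0, 47.8 and 23.4 in mutant_2, so it fell in mutant_1 (-1.10 ± 0.30) and rose in mutant_2 (2.31 ± 0.25). miR-181b-3p, below 7 CPM, had the same order (-1.99 ± 0.59 and 1.96 ± 0.36). The family with the miR-181 seed thus held 2 members that rose and 2 that fell, the latter at low levels. The miR-181c and miR-181d cluster summed to 20.2 CPM in wildtype, 4.81 in mutant_1 and 8.22 in mutant_2. The whole seed family summed to 850 CPM in wildtype, 1532 in mutant_1 and 2609 in mutant_2. miR-181d-5p is close in sequence to miR-181b-5p, so reads may be shared.

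The cluster with the largest rise was miR-99a/let-7c, in MIR99AHG at chr21:16539089-16539911 on the plus strand. miR-99a-5p, whose targets include mTOR, was at 79.8, 67.4, 82.9 and 134 CPM in wildtype, 593, 683, 635 and 1088 in mutant_1, and 593, 596, 792 and 1053 in mutant_2. All 8 mutant libraries were above all wildtype libraries, and replicate 4 was the highest in each group. The change was 3.05 ± 0.24 (adjusted p = 2e-09) and 3.06 ± 0.24 (adjusted p = 2.27e-09). let-7c-5p rose by 2.04 ± 0.12 and 1.93 ± 0.12. The mutants differed by 0.02 ± 0.22 for miR-99a-5p and by -0.11 ± 0.11 for let-7c-5p, with no call. MIR99AHG itself had at most 19 poly(A) reads in a library and was not tested.

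The miR-23b/27b/24-1 cluster, at chr9:95085208-95086088 on the plus strand within AOPEP, rose in all 6 tested members. miR-27b-3p was at 59742, 53474, 50940 and 56746 CPM in wildtype, 119814, 117981, 109720 and 137842 in mutant_1, and 104149, 111126, 123884 and 135128 in mutant_2. The lowest mutant library was well above the highest wildtype library. The changes were 1.14 ± 0.09 and 1.10 ± 0.09, and those of miR-23b-3p were 0.77 ± 0.08 and 0.79 ± 0.08.

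The paralogous miR-23a/27a/24-2 cluster on chromosome 19 moved the other way. miR-23a-3p was at 4932, 4681, 4850 and 4582 CPM in wildtype, 2647, 2596, 2411 and 2639 in mutant_1, and 3097, 3227, 3227 and 3722 in mutant_2. It fell by 0.89 and 0.52 on the log2 scale, together with miR-23a-5p, miR-27a-5p and miR-24-2-5p. miR-24-3p comes from both clusters and rose by 0.75 ± 0.12 and 0.78 ± 0.12, and its reads cannot be assigned to either. miR-27a-3p was at -0.10 ± 0.12 and 0.02 ± 0.12, without a call. With counts from Chimira, a second counting program, it was called as lower in both mutants (-0.62 and -0.41); it differs from miR-27b-3p near its 3′ end only.

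On the X chromosome a run of 8 hairpins, miR-532 to miR-502 at chrX:50003148-50014683, lies in introns of CLCN5. Of its 15 tested miRNAs, 13 rose in both mutants, with medians of 1.39 and 1.01. Their sum was at 2212, 2069, 2293 and 2200 CPM in wildtype, 6185, 5603, 5463 and 5339 in mutant_1, and 4532, 4488, 4289 and 4507 in mutant_2. Each mutant_1 library was above each mutant_2 library, and each mutant_2 library above wildtype. miR-502-3p rose by 1.80 ± 0.09 and 1.39 ± 0.09, and miR-500a-3p by 1.62 ± 0.08 and 1.14 ± 0.08. The exceptions, miR-188-3p and miR-500b-3p, were below 3 CPM in every library. miR-500a-3p, miR-501-3p and miR-502-3p are similar, so reads may be shared between them.

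The largest single rise was that of miR-3144-3p, at 0.397, 0.210, 0.617 and 0.676 CPM in wildtype, 17.7, 18.9, 20.4 and 20.1 in mutant_1, and 31.7, 27.6, 28.6 and 33.6 in mutant_2. The changes were 5.40 ± 0.22 and 6.05 ± 0.21. miR-1229-3p, from an intron of MGAT4B, rose from 1.83 to 4.73 CPM to 33.2 to 45.3 and 47.9 to 69.1. miR-129-5p, miR-139-5p, miR-34c-5p, miR-375, miR-320b and miR-23c complete the 10 largest rises with miR-99a-5p and let-7c-5p. miR-139-5p, from an intron of PDE2A, went from 45.4 to 50.7 CPM in wildtype to 203 to 287 in the mutants. miR-23c and miR-320b have close relatives (miR-23a and miR-23b, and the other miR-320 copies), which makes their levels uncertain.

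More modest rises were seen elsewhere. The miR-125 family rose in both tested members, miR-125b-5p by 0.77 ± 0.12 and 1.96 ± 0.12 and miR-125a-5p by 0.61 ± 0.09 and 0.43 ± 0.09; the mutant_2 call of miR-125a-5p was lost without wildtype replicate 2 (0.21, adjusted p = 0.0665) or mutant_2 replicate 1 (0.22, adjusted p = 0.0611). miR-132-3p, a miRNA induced by CREB, rose by 1.16 ± 0.12 and 1.12 ± 0.12. miR-221-3p and miR-222-3p, which share a seed and repress CDKN1B, rose by 0.27 ± 0.08 and 0.54 ± 0.08, and by 0.39 ± 0.10 and 0.64 ± 0.10. Both calls in mutant_1 were lost with library totals as the only scaling (0.16, adjusted p = 0.196, and 0.28, adjusted p = 0.0487). That of miR-221-3p was also lost with 8 of the 12 libraries left out in turn (0.16 to 0.29), and that of miR-222-3p without wildtype replicate 2 (0.30) or mutant_2 replicate 1 (0.28). Without those libraries the log2 changes of all miRNAs in mutant_1 moved by a median of -0.121 and -0.105. The mutant_2 library enters the mutant_1 comparison only through the shared fit and scaling.

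Other groups had smaller or mixed changes. The short cluster of miR-653 and miR-489, in introns of CALCR, rose in 3 of 3 members, all below 14 CPM. In the miR-130 and miR-301 family, miR-301a-3p rose by 0.85 ± 0.12 and 1.07 ± 0.12 and miR-301b-3p by 0.79 ± 0.20 and 0.90 ± 0.20, while miR-130b-3p was at -0.01 ± 0.11 and -0.00 ± 0.11. Thus 2 of its 4 members rose. In the miR-378 family, miR-378a-3p was at 3858, 4314, 3738 and 3441 CPM in wildtype, 6003, 5801, 6157 and 6101 in mutant_1, and 6724, 6805, 6714 and 6936 in mutant_2, and rose by 0.65 ± 0.08 and 0.82 ± 0.08. miR-378i, close to it in sequence, was called lower (-0.53 and -0.68) and turned higher with Chimira counts (1.25 and 1.32). The rows of miR-378i, miR-422a, miR-320c, miR-550a, miR-1260a and several miR-548 copies are near-identical to others and are uncertain.

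The let-7 family did not move as 1 group. let-7 miRNAs repress RAS genes, HMGA2 and LIN28 itself, and their precursors are the known TUT4 and TUT7 substrates in LIN28-positive cells. LIN28A was at 161 to 332 CPM in the 12 poly(A) libraries, at -0.10 ± 0.16 and 0.21 ± 0.16 against wildtype without a call, and LIN28B had at most 1 read in a library. Of 9 tested members with the let-7 seed, 3 rose in both mutants and 1 fell. let-7a-5p, the most abundant, was at 11693, 11680, 11548 and 11747 CPM in wildtype, 11344, 10800, 10430 and 12439 in mutant_1, and 10746, 9815, 9401 and 11228 in mutant_2, with no call in either.

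let-7g-5p was at 6279, 6080, 5365 and 5313 CPM in wildtype, 15395, 15679, 14828 and 17172 in mutant_1, and 3347, 3323, 3303 and 3413 in mutant_2. It rose in mutant_1 (1.45 ± 0.08) and fell in mutant_2 (-0.78 ± 0.08), and the mutants differed by -2.24 ± 0.08 (adjusted p = 5.66e-14). let-7i-5p showed the same order, with 1.27 ± 0.09 in mutant_1 and -1.51 ± 0.09 in mutant_2. let-7d-5p rose in mutant_1 (1.39 ± 0.11) and was at -0.25 ± 0.11 in mutant_2, while let-7f-5p fell in mutant_2 (-0.86 ± 0.08) and was at 0.24 ± 0.08 in mutant_1. Both uncalled values lay near the threshold: let-7f-5p was called in mutant_1 with precursor rows summed (0.27), and let-7d-5p in mutant_2 with DESeq2 size factors (-0.34).

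miR-98-5p, which shares the let-7 seed, was at 546, 536, 490 and 484 CPM in wildtype, 78.3, 82.5, 68.3 and 88.0 in mutant_1, and 73.5, 72.9, 72.5 and 80.7 in mutant_2. It fell by 2.70 and 2.78 on the log2 scale. Its host gene HUWE1 was at 0.14 ± 0.10 and 0.10 ± 0.10 in poly(A) RNA, without a call. let-7b-5p, let-7c-5p and let-7e-5p rose in both mutants, but the mutant_2 call of let-7b-5p (0.38 ± 0.11) was lost under DESeq2 size factors (0.29, adjusted p = 0.0284) and without wildtype replicates 2, 3 or 4 or mutant_2 replicates 1 or 2 (0.15 to 0.39). let-7 members differ by few bases, so reads may be shared.

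**Figure D3:**
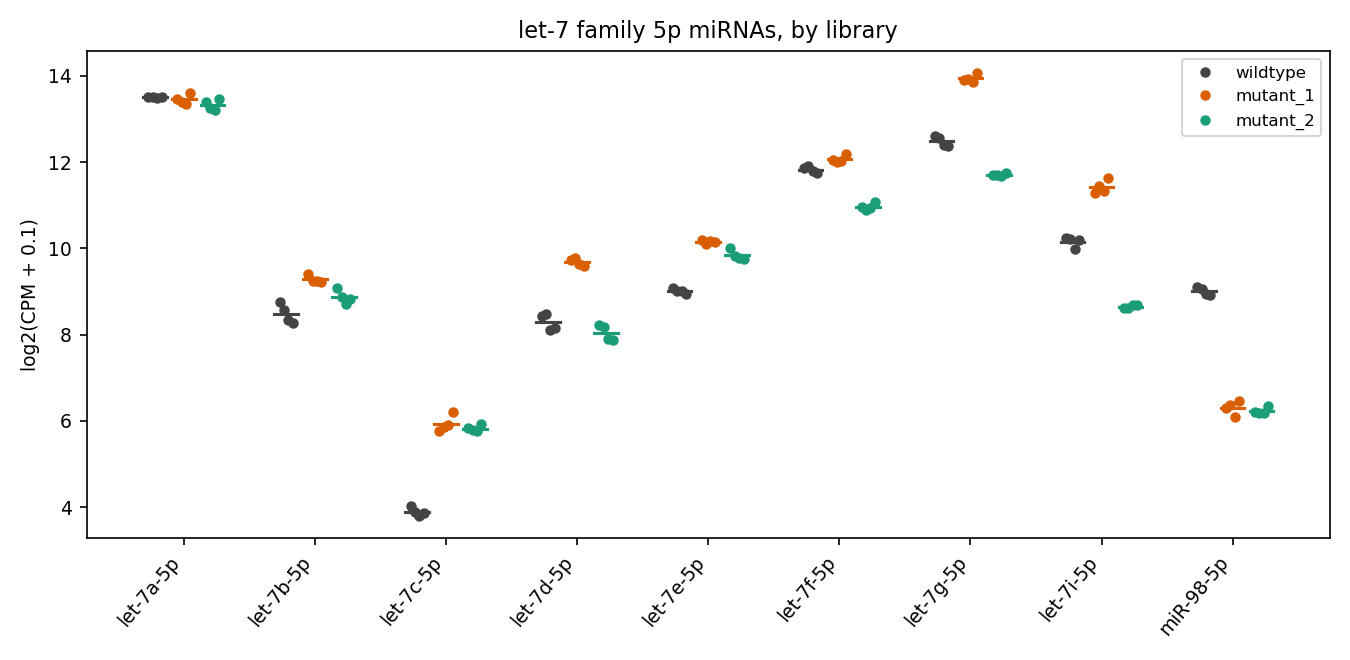
Level of the 9 miRNAs with the let-7 seed as log2(CPM + 0.1) (y axis), with 1 point per library and a bar at the group mean. let-7g-5p and let-7i-5p lie above wildtype in mutant_1 and below it in mutant_2, let-7a-5p is level, and miR-98-5p is low in both mutants.

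The miR-17-92 cluster, a MYC-driven promoter of proliferation at chr13:91350605-91351391, had 11 tested members. 1 of them, miR-18a-3p, rose in both mutants (0.95 ± 0.12 and 0.48 ± 0.12), and the medians were 0.21 in mutant_1 and -0.50 in mutant_2. The mutant_2 call of miR-18a-3p was lost with library totals only (0.46, adjusted p = 0.0138), and without wildtype replicate 2 (0.38) or mutant_2 replicate 1 (0.27). miR-17-5p was at -0.05 ± 0.10 in mutant_1 and fell in mutant_2 (-0.61 ± 0.10), and the host MIR17HG was at 0.15 ± 0.39 and -0.01 ± 0.38 without a call.

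Of the 10 most abundant miRNAs in wildtype, miR-21-5p and miR-302b-3p fell in both mutants, and miR-27b-3p, miR-23b-3p, miR-26a-5p and miR-30d-5p rose in both. miR-21-5p, widely high in tumours, was at 197496, 186587, 205605 and 228158 CPM in wildtype, 36297, 39387, 38092 and 41687 in mutant_1, and 98214, 102695, 113971 and 107948 in mutant_2. The groups were separate, with mutant_1 lowest, and the changes were -2.40 ± 0.08 and -0.95 ± 0.08. miR-30a-5p, the most abundant by mean, took 22.2 to 23.6% of the reads in wildtype replicates 1 to 3, 27.3 to 32.1% in mutant_1 and 18.7 to 24.2% in mutant_2. In wildtype replicate 4 the top miRNA was miR-21-5p, at 22.9%. miR-30a-5p rose in mutant_1 (0.48 ± 0.11) and was at -0.07 ± 0.11 in mutant_2. The call of miR-30a-5p was lost without wildtype replicate 2 (0.33, adjusted p = 0.0348) and under DESeq2's Wald test (0.39, adjusted p = 0.0198). miR-10a-5p rose in mutant_1 (1.92 ± 0.09) and was at 0.25 ± 0.09 in mutant_2, without a call. miR-26a-5p rose by 0.74 ± 0.07 and 0.42 ± 0.07, and its mutant_2 call was lost without wildtype replicate 2 (0.25, adjusted p = 0.0158).

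The balance between the arms of a hairpin was tested as log2 of 5p over 3p reads. Of 184 hairpins with both arms tested, 18 (9.78%) changed in the mean of the mutants (limma, adjusted p under 0.01), 10 toward 5p (5.43%) and 8 toward 3p (4.35%). For miR-324, a hairpin whose cutting is known to respond to uridylation, the 5p arm made up 47.8, 45.6, 47.9 and 46.8% of reads in wildtype, 80.2, 75.5, 79.3 and 81.4% in mutant_1, and 76.3, 75.5, 78.1 and 76.9% in mutant_2. All mutant libraries were far above wildtype, and the mutants overlapped. The ratio changed by 1.99 ± 0.13 (adjusted p = 1.02e-08). miR-324-5p rose by 0.68 ± 0.11 and 0.85 ± 0.10, while miR-324-3p fell by 1.41 and 1.04 on the log2 scale.

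The other hairpins among the 5 largest arm changes rest on few reads of the minor arm. miR-200c (1.99 ± 0.31) had 0 reads of the 5p arm in the mutants, so its ratio is set by the added 0.5 reads. miR-106a (2.01 ± 0.40) moved in mutant_1 only by call, its 3p arm was below 3 CPM, and the call was lost without wildtype replicate 1 (1.82, adjusted p = 0.0157). miR-1292 (-1.47 ± 0.34) lost its call with 9 of the 12 libraries left out in turn. miR-6511b (1.92 ± 0.29) was at 0.62 with Chimira counts (adjusted p = 0.447). Among hairpins with more reads, the 5p share of miR-302d went from 3.38 to 3.90% in wildtype to 5.83 to 11.7% in the mutants, and that of miR-18a from 94.3 to 95.3% to 88.1 to 92.1%.

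**Figure D4:**
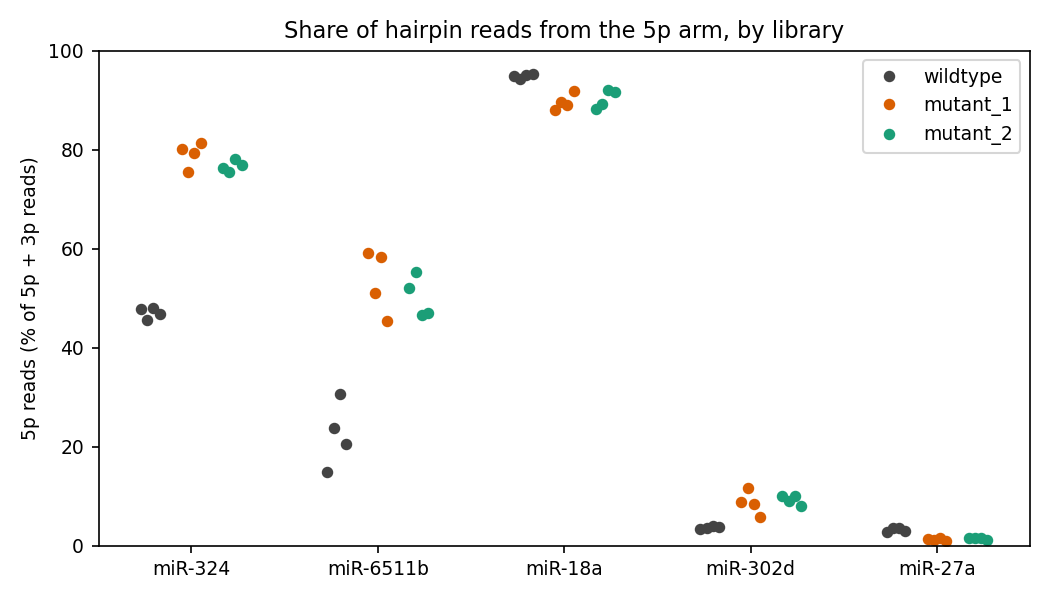
Share of a hairpin's reads that come from the 5p arm, in percent (y axis), with 1 point per library for 5 hairpins. miR-324 goes from below 50% in wildtype to above 75% in every mutant library.

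The same libraries give the share of reads with an untemplated uridine at the 3′ end. Over all miRNA reads it was 2.29 to 2.64% in wildtype, 0.328 to 0.356% in mutant_1 and 0.408 to 0.445% in mutant_2. By call in abundance, the median wildtype share was 3.02% over 105 miRNAs that rose in both mutants, 2.27% over 103 that fell and 2.23% over 317 others, each with at least 100 wildtype reads. Calls and shares come from the same libraries, so no test was made. miRNAs with much wildtype uridine were found on both sides: miR-23b-3p, which rose, had 23.6% ± 0.88 (SD, n = 4) and miR-132-3p 28.6% ± 3.3, while miR-143-3p, which fell, had 38.1% ± 1.1 and miR-324-3p 62.1% ± 2.1. miR-302d-3p and miR-21-5p, which also fell, had 1.23% ± 0.054 and 0.0612% ± 0.0078.

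Host transcripts were compared in the poly(A) libraries, in a fit over 13932 genes of which 15.6% were called in both mutants with 1 sign, 6.65% higher and 8.94% lower. AOPEP, listed as C9orf3 and the host of the miR-23b cluster, was at 66.2, 65.1, 63.6 and 65.7 CPM in wildtype, 152.5, 161, 181.1 and 214 in mutant_1, and 168, 193, 201 and 216 in mutant_2. It rose by 1.44 ± 0.12 and 1.58 ± 0.12, with no overlap between wildtype and mutants. CLCN5, host of the X-linked run, rose by 1.596 ± 0.21 and 1.21 ± 0.21. CTDSPL, host of a miR-26a copy, rose by 0.94 ± 0.12 and 0.55 ± 0.12. CTDSP2, host of the other copy, was at 0.40 ± 0.11 and 0.21 ± 0.11 without a call, though in mutant_1 it lay near the threshold (edgeR adjusted p = 0.0104). miR-26a-5p comes from both loci, so its reads cannot be assigned to either. MIR210HG fell by 1.69 and 1.98, and the hypoxia-induced miR-210-3p (named here after its values were seen) fell by 1.31 and 1.58 on the log2 scale.

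Host and miRNA did not always share a pattern. SKA2, host of miR-301a, was at 0.08 ± 0.19 and 0.35 ± 0.19 without a call, whereas miR-301a-3p rose in both mutants. HOXB3, around miR-10a, rose in both mutants (1.25 ± 0.10 and 1.10 ± 0.10), whereas miR-10a-5p rose in mutant_1 only by call. HOXB-AS3, on the opposite strand there, rose in mutant_1 (2.44 ± 0.30) and fell in mutant_2 (-1.77 ± 0.34), and miR-10a-5p was lower in mutant_2 than in mutant_1 (-1.67 ± 0.09 in the direct test). Of the listed host and TUT and LIN28 genes, 10 of the 33 tested (30.3%) were called in the mean of the mutants, a share near the 30% of all genes tested. Spliced poly(A) RNA and a primary miRNA transcript are different molecules, and one does not measure the other.

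**Figure D5:**
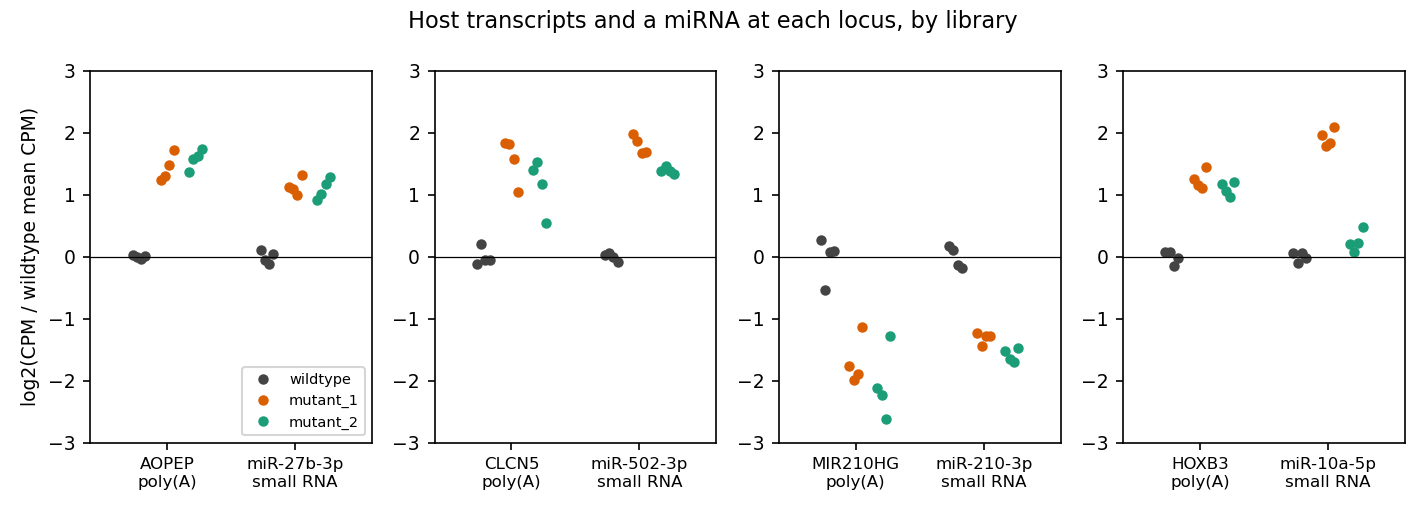
Log2 of the level over the wildtype mean (y axis) for 4 host transcripts in poly(A) RNA and a miRNA at the same locus in small RNA, with 1 point per library. AOPEP with miR-27b-3p and CLCN5 with miR-502-3p lie above 0 in both mutants, MIR210HG with miR-210-3p below it, and HOXB3 with miR-10a-5p above it in mutant_1.

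Position and composition differed between the called groups. Among miRNAs whose loci lie on 1 chromosome, 19 of 30 tested on chromosome 4 and 14 of 31 on chromosome 5 fell in both mutants, against 16.1% of all tested. Those that rose were 22 of 53 on the X chromosome and 4 of 7 on chromosome 21, against 19.5% of all tested. These chromosomes are named for having the largest shares. The miR-302 cluster supplies 9 of those on chromosome 4 and the miR-143 cluster 4 of those on chromosome 5. The CLCN5 run supplies 13 of those on X, and miR-99a/let-7c 3 of those on chromosome 21. The median GC content was 52.1% for 116 miRNAs that rose, 43.5% for 102 that fell and 47.8% for all 591 with a matched sequence. Its part in the calls was not tested.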

How the data were processed

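The members and gene lists were chosen with earlier results of these data known. Small RNA libraries (NEXTFlex v3) were trimmed of adaptors and random end bases and counted by the authors with miRDeep2 on hg38; the deposited table holds raw counts per precursor, and 36 normalized columns in it were not used. The paper describes the random bases as molecular identifiers; whether these counts were collapsed by them is not given in the sources used here. Per-library Chimira counts, also deposited by the authors, gave the 3′ additions. Poly(A) reads were trimmed (Trimmomatic 0.39), cleared of ribosomal RNA, mapped (HISAT2 2.1.0) and counted with HTSeq by the authors, and the deposited values are counts per gene; rows that name no gene (26.0 to 30.1% of a library) were left out.

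Counts were fitted with edgeR 4.0.16 (R 4.3.3, TMM, filterByExpr, quasi-likelihood, 3 group means) and arm ratios with limma 3.58.1 (pseudocount 0.5). The p-values were Benjamini-Hochberg adjusted over all features and called under 0.01. For the edgeR fits SE = |log2 fold change| / √F, and for arm ratios SE is limma's moderated standard error. CPM are TMM-scaled. The steps were tested on simulated data. Depth was 5703589 to 13279843 miRNA reads per library, and floors of 3 reads cover counting error only. miRDeep2 can count a read at several near-identical miRNAs. Hairpins were placed with GENCODE v44.

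Named miRNAs were those of families and clusters with at least 2 members, and no fewer than 50%, moving 1 way in both mutants, the let-7, miR-200 and miR-17-92 groups, the 10 largest rises and falls at 10 CPM or more, the 10 most abundant, and the 5 largest arm changes with miR-324. Alternatives were other scalings, filters, tools (DESeq2 1.42.0), precursor sums, all 36 libraries, a replicate block, a threshold of 0.05 and each library left out; Chimira counts were added after seeing the data.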

Additional observations from a re-analysis of the deposited data

Results flagged for a closer look

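Of 90 groups of 4 libraries examined for the 30 most changed or most abundant miRNAs, 3 had a library apart from the other 3: miR-129-5p at 1.35 CPM in 1 wildtype library, miR-200c-3p at 5803 CPM in 1 wildtype library, and miR-92a-3p at 24640 CPM in 1 mutant_1 library. Chance flags about 1 in 20 groups.

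The effects of the 2 mutants differed for 234 miRNAs in the direct edgeR test, and 18 were called in opposite directions. Among the largest changes, mutant_2 was above mutant_1 (log2) by 3.96 for miR-135b-5p, 2.74 for miR-302d-3p, 2.29 for miR-367-3p, 2.28 for miR-302b-3p, 2.23 for miR-143-3p, 1.80 for miR-302b-5p, 1.62 for miR-145-5p, 0.89 for miR-375 and 0.65 for miR-3144-3p; for the falls among these, mutant_1 was the lower. It was below mutant_1 for miR-129-5p (-1.38) and miR-200c-3p (-0.45). Among the most abundant miRNAs the difference was 1.44 for miR-21-5p, 0.74 for miR-30d-5p, -1.67 for miR-10a-5p, -0.68 for miR-92a-3p, -0.55 for miR-30a-5p, -0.41 for miR-30c-5p and -0.32 for miR-26a-5p.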

How the results depend on the processing

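With a mean of at least 10 CPM required, 358 miRNAs were tested. The calls were 230 in mutant_1, 242 in mutant_2 and 237 for the mean of the mutants. Fewer miRNAs were tested, and each count was a larger share of them than in the main fit (51.8%, 54.3% and 58.1% of 678). The 18 arm changes became 35 with a pseudocount of 5 and 38 at an adjusted p under 0.05, and ranged from 11 (without wildtype replicate 1) to 19 with libraries left out. With at least 500 reads, the median wildtype uridine share was 1.80% for miRNAs that fell and 1.598% for the others; the cause was not tested. Chimira counts reversed miR-1260a in mutant_1 (0.56), miR-1260b in mutant_1 (0.34), miR-27a-3p in mutant_2 (-0.41) and miR-378i in both mutants (1.25 and 1.32); the cause was not tested. The split of calls in mutant_1 was 195 higher and 156 lower, against 121 and 152 with all 36 libraries; between the mutants it was 121 and 113, against 107 and 66. In both mutants 132 rose and 109 fell. Fewer rose than fell without the low-count filter (110 and 144), with DESeq2 size factors (121 and 124) or library totals only (112 and 119). The same held under DESeq2's Wald test (116 rose) and with all 36 libraries (81 and 93, 174 in all). It also held without wildtype replicate 2 (96 and 124) or mutant_2 replicate 1 (101 and 128). In mutant_2 alone, 197 and 171 became 153 and 208, and 148 and 197, without those libraries. Without them the log2 changes moved by a median of -0.121 and -0.105 in mutant_1, and of -0.173 and -0.152 in mutant_2. Library totals as the only scaling moved the median log2 change by -0.106 in mutant_1. Calls in both mutants numbered 220 to 245 with each library left out. Same-numbered libraries correlated at -0.0573 to 0.323 (median 0.129) in their deviations from the group means, with 7 of 12 pairs above 0.1. Differently numbered libraries were at -0.295 to 0.222 (median -0.026), with 8 of 36 pairs above 0.1. Same-numbered libraries thus tended to deviate alike, which the main fit, without a block, did not take into account. Replicate number follows passage order in each group, and the part of passage was not tested. With a replicate block the calls were 385 in mutant_2, 251 in both mutants, 403 in the mean of the mutants, 263 between them and 27 arm ratios. Of 274 called results for named miRNAs and genes, 206 kept their call and direction under every alternative that gave a value.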
